A study of Mus musculus with 10 samples.

Results

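The outer hair cells (OHCs) of the aged mouse cochlea were examined as a class of 81 cells among 206 cochlear hair cells (HCs), 7272 cochlear cells and 17696 cells kept in all. The study profiled cochlear and vestibular sensory epithelia of wild-type CBA/J mice, male and female, at 22 months of age, with no other treatment. Organs of 7 to 8 mice were pooled for each library and dissociated with collagenase IV, and single cells were captured in droplets with 3' chemistry that tags each RNA molecule with a unique molecular identifier (UMI). Of 5 deposited cochlear replicates the second was a repeat of the first. Its 1313 barcodes were all present in replicate 1, the 23 OHCs included, and the gene counts of the pair differed less than sampling noise allows (0.125 chi-square units per gene, against 32.6 between replicates 1 and 4). Vestibular replicate 2 shared 1633 of its 1641 barcodes with replicate 1, and the pair differed by 0.120 chi-square units per gene. Each pair was therefore counted as 1 library, replicate 1, which left replicates 1, 3, 4 and 5 of each organ. The sexes in each library are not given in the sources used here. Every library pooled several animals, so the spread between libraries is a spread between pools. Young mice were not analysed here.

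OHCs of the organ of Corti amplify sound-induced vibration by changing length with membrane voltage, a movement driven by prestin, the motor protein of their lateral wall and the product of Slc26a5. Inner hair cells (IHCs) instead pass sound to the auditory nerve by releasing glutamate, for which they need otoferlin (Otof), and vestibular HCs sense head movement. OHCs receive cholinergic efferent input from the brainstem and are among the first cochlear cells to be lost with age.

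The 81 OHCs were chosen by the UMIs of 9 genes. A barcode had at least 200 genes, at least 1000 UMIs and under 25% mitochondrial UMIs. It also had a UMI in at least 3 of the 6 HC genes Myo6, Myo7a, Pou4f3, Tmc1, Kncn and Gfi1, at least 1 UMI of Slc26a5 or at least 5 of Ocm (oncomodulin, a calcium buffer of OHCs), and more Ocm than Otof UMIs. HCs of the same libraries with more Otof than Ocm made up a comparison class of 119 cells, called IHC-like here, and 6 cochlear HCs fell in neither class. OHCs numbered 23, 36, 8 and 14 in replicates 1, 3, 4 and 5, the order of every series of 4 values given here. As a share of cochlear HCs these were 23 of 42 (54.8%, with a 95% Clopper-Pearson interval from 38.7 to 70.2%), 36 of 103 (35.0%, from 25.8 to 45.0%), 8 of 23 (34.8%, from 16.4 to 57.3%) and 14 of 38 (36.8%, from 21.8 to 54.0%). These intervals, which cover counting error only, overlap one another. As a share of all cochlear cells kept, OHCs were 4.03% (from 2.57 to 5.98%), 0.71% (from 0.50 to 0.98%), 1.15% (from 0.50 to 2.26%) and 1.50% (from 0.82 to 2.50%). There the interval of replicate 1 lay above those of the other replicates. Survival of dissociation and the gate on HC genes can both set such shares.

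The values that chose the cells are given as a description, with no test. The median OHC carried 100 Ocm UMIs (5 to 420), 4.0 Slc26a5 UMIs (0 to 22) and no Otof UMI (0 to 33). As summed UMIs per 1000000 UMIs of the class (CPM), Ocm stood at 17642, 21391, 32428 and 20818 in OHCs and at 46.9, 128, 68.5 and 249 in IHC-like cells. Slc26a5 stood at 753, 805, 1416 and 2007 CPM in OHCs, and no UMI of it was found among the 1450976 UMIs of the IHC-like cells. Its mean OHC level of 1245 CPM was 602 times a floor of 3 UMIs over the whole IHC-like class. All 65 OHCs with a Slc26a5 UMI also had at least 5 Ocm UMIs, and the other 16 entered through Ocm alone. Just inside the rule lay an OHC with 5 Ocm UMIs and 1 Otof UMI and another with 25 Ocm and 24 Otof UMIs. Just outside lay an HC with 11 UMIs of each gene and an HC with 3 Ocm UMIs and none of Otof.

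**Figure D1:**
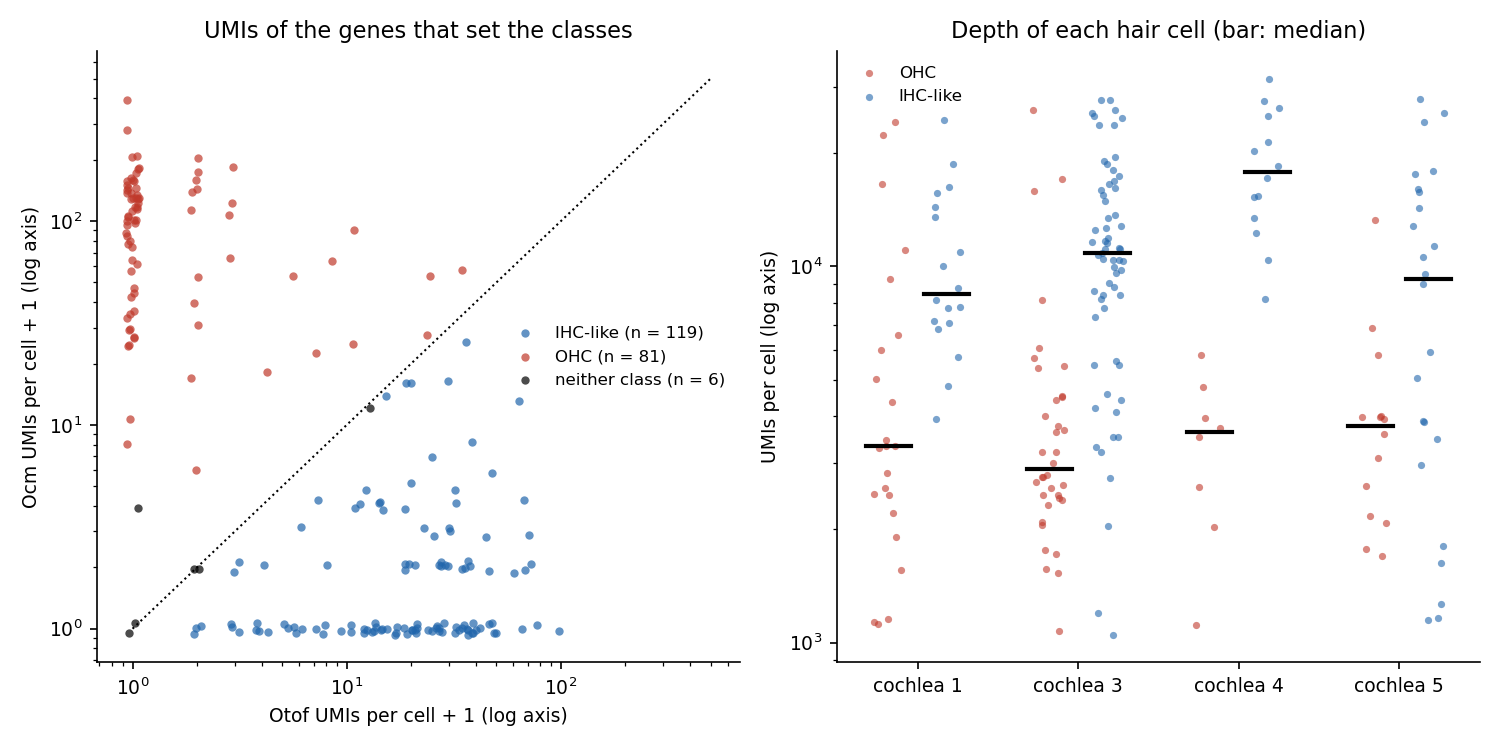
Left, Ocm against Otof UMIs in each of the 206 cochlear HCs (both axes log, 1 added, points slightly jittered, dotted line at equal counts); right, UMIs of each OHC and IHC-like cell by cochlear library (log axis, bars at medians). The 81 OHCs lie above the line of equal counts, and in each of the 4 libraries their median depth lies below that of the IHC-like cells.

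Slc26a5 lies at chr5:21810655-21865604, minus strand, Ocm at chr5:144019804-144026670, minus strand, Aqp11 at chr7:97724006-97738289, minus strand, Sri at chr5:8046078-8069379, plus strand, Lbh at chr17:72918305-72941947, plus strand, and Strip2 at chr6:29917012-29959681, plus strand (GRCm38). Promoters were looked at because these genes were high together in OHCs, and RefSeq promoter entries (GRCm38.p6) matched 7 OHC genes. The 250 bases before the start of Slc26a5 (chr5:21865605-21865854, minus strand), Sri (chr5:8045828-8046077, plus strand), Lbh (chr17:72918055-72918304, plus strand) and Strip2 (chr6:29916763-29917012, plus strand) are shown 5′ to 3′ on the gene's strand as examples with and without the letters TGGGAA, the core bound by the Ikaros family to which helios (Ikzf2) belongs. Capitals mark TGGGAA or its reverse complement TTCCCA.
Slc26a5: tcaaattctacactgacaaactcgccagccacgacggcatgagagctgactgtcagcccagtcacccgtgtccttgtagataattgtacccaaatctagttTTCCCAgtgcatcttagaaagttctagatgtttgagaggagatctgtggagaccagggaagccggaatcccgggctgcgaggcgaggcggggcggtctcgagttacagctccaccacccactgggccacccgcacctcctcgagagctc
Sri: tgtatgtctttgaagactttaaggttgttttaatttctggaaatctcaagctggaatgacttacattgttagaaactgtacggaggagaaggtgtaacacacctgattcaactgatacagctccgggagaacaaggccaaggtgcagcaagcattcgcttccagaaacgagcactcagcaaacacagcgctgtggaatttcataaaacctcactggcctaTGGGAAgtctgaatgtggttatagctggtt
Lbh: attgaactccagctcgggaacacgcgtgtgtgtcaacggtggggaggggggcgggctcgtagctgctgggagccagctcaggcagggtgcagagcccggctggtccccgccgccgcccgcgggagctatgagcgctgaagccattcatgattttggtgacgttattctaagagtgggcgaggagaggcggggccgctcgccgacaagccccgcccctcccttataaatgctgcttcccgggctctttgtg
Strip2: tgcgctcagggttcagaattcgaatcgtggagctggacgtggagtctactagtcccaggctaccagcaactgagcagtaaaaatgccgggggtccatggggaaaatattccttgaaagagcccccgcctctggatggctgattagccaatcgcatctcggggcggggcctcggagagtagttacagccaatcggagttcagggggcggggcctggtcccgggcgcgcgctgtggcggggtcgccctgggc
The Ocm window lies apart from the gene's span given above, and it held neither motif searched. The letters stood in 3 of the 7 promoters (Slc26a5, Aqp11 and Sri), or 3 of 6 without Ocm, and in 21.6% of 32851 mouse promoters of the same length. The E-box CAGCTG, its own reverse complement, stood in none of the 7, with or without Ocm, and in 13.0% of all. A match describes the letters in this window and nothing about binding.

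OHCs that entered through Ocm alone carried fewer OHC genes. Over 7 OHC genes that the rule did not use (Aqp11, Ikzf2, Lbh, Lmod3, Strip2, Sri and Ociad2), the 65 cells with Slc26a5 had a UMI in a median of 5.0 genes and in no fewer than 2, and their pooled level was 4119 CPM. The 16 cells without Slc26a5 had a UMI in a median of 3.0 of these genes and a pooled level of 1351 CPM, at a median depth of 2441 against 3330.0 UMIs. Their pooled level of 5 IHC genes (Slc17a8, Tbx2, Slc7a14, Atp2a3 and Dnajc5b) was 2266 CPM, against 204 CPM in OHCs with Slc26a5 and 4080.0 CPM in IHC-like cells. The IHC genes were unevenly spread among the 16 cells: 6 had no UMI of any of them, 7 had at least 3 Otof UMIs, and the 14 cells of up to 10000 UMIs stood at 1699.9 CPM of IHC genes and 1859 CPM of OHC genes. Of the 16 cells 9 came from replicate 3. Ocm alone did not mark cochlear cells, since 209 of 1995 vestibular HCs met the same rule and 2 of those had a Slc26a5 UMI.

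A few deep barcodes weighed on the pooled values. In all, 8 of the 81 OHC barcodes exceeded 10000 UMIs and supplied 53.6, 35.2, 0 and 22.6% of the OHC UMIs of the 4 libraries. Of the 4 in replicate 1, 3 had a UMI in 7 to 9 of 12 supporting cell markers, and 2 of the 3 in replicate 3 had a UMI in 6 of 8 spiral ganglion neuron markers. At least 3 supporting cell markers had a UMI in 8 of the 81 OHCs and in 72 of the 119 IHC-like cells, which were deeper. For neuron markers these were 3 OHCs and 14 IHC-like cells. No OHC barcode was shared between different libraries, and no other pair of libraries shared more than 41 barcodes.

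RNA of other cells was followed by summing each cell type's markers in the OHC pools. The 12 supporting cell markers summed to 2388, 328, 0 and 714 CPM (11 with a UMI, Epyc the most abundant, Tecta at 0) and to 468, 230.1, 0 and 154 CPM without the deep barcodes. The 8 neuron markers summed to 86.8, 1836, 182 and 153 CPM (6 with a UMI, Snap25 the most abundant, Gap43 and Prph at 0) and to 140.5, 138, 182 and 176 CPM without them. The supporting cell marker sum was therefore highest in replicate 1 and the neuron marker sum in replicate 3. Both were lower there without 4 and 3 barcodes. Vestibular HCs also carried these markers (means of 2161 and 1277 CPM), and the source of this RNA was not tested. Red cell markers stood at 4436, 113, 0 and 51.0 CPM (4 of 5, Hbb-bs the most abundant, Alas2 at 0) and at 9411, 166, 0 and 65.9 CPM without the deep barcodes. Fibrocyte markers stood at 217, 1436, 145 and 2194 CPM (6 of 7, Dcn the most abundant, Col1a2 at 0) and at 249.7, 1978, 145 and 2745 CPM without them. Red cell and fibrocyte marker sums were therefore both higher in replicates 1, 3 and 5 without the deep barcodes. Glial markers stood at 268, 745, 109 and 68.0 CPM (6 of 6, Mbp the most abundant) and at 172, 331, 109 and 22.0 CPM without them. Vestibular HC markers stood at 109, 1776, 0 and 85.0 CPM (4 of 6, Spp1 the most abundant, Adam11 and Tnc at 0), and at 46.8, 957, 0 and 0 CPM without deep barcodes. Of 8 macrophage markers 3 had a UMI, and C1qa, C1qb, C1qc, Csf1r and Cx3cr1 were all at 0. Granulocyte, B lineage, endothelial and strial markers averaged 5.11, 6.28, 21.4 and 102 CPM. Of the 81 OHCs 10 had a UMI in at least 3 glial, fibrocyte, red cell, macrophage, granulocyte, endothelial or B lineage markers. Without the cells of each class that met this limit, which supporting cell and neuron markers did not enter, 223 genes were higher and 243 lower in OHCs than in IHC-like cells (2663 tested, edgeR adjusted p under 0.05), against 175 and 183 with all cells, and 158 of the 158 higher and 163 of the 171 lower genes tested in both were called again. Against vestibular HCs 532 were higher and 1020 lower without these cells (6773 genes tested), and 488 and 1021 with them (8746 tested). The limit cut the vestibular HCs from 207, 927, 533 and 328 cells to 166, 297, 278 and 244. These counts therefore rest on unlike sets of vestibular cells and of genes. Beyond these values and those without the deep barcodes, the part of this RNA in the differences described here was not tested.

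OHCs were shallower than IHC-like cells. The median OHC held 3330.0, 2895, 3622 and 3754 UMIs and the median IHC-like cell 8429, 10854, 17842 and 9236 UMIs. OHCs were lower in 4 of 4 libraries, with means of 3400.0 ± 380.3 and 11590.1 ± 4288 UMIs (SD, n = 4; exact paired permutation test, two-sided p = 0.125, the smallest that 4 libraries allow). Genes per cell were 1633 ± 155 and 3744 ± 725 (mean of library medians ± SD, n = 4, exact permutation p = 0.125). With every cell thinned to 1000 UMIs the medians were 645, 618, 661 and 628 genes in OHCs and 677, 651, 674 and 664 genes in IHC-like cells, a much smaller gap in the same direction. Mitochondrial shares were 9.17 ± 3.04% and 8.60 ± 2.81% (exact permutation p = 0.25). The pooled OHCs held 138193, 167783, 27538 and 58796 UMIs, so the 3 UMIs that a count of 0 allows are worth 21.7, 17.9, 109 and 51.0 CPM, and low genes were measured most poorly in replicate 4. Fewer molecules per cell and lower capture cannot be told apart here.

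To find which other genes set OHCs apart within the cochlea, UMIs were summed per class and library and OHCs were compared with the IHC-like cells of the same libraries (edgeR, library as a block). Of 3248 genes outside the rule that passed the filter on low counts, 175 (5.39%) were higher in OHCs and 183 (5.63%) were lower at an adjusted p under 0.05. The median log2 difference over all genes tested was -0.03. A gene low in a class can pass the filter only through the other class. Counts of calls and medians of the gene lists below are therefore given as a description. Differences are given as OHCs over the other class, and levels in CPM.

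Most OHC identity genes tested that the rule did not use were higher in OHCs. Of the 11 listed here, 9 passed the filter, 7 rose and none fell (median log2 difference 3.26), beside 5.39% higher and 5.63% lower over all genes tested. Members such as Aqp11 and Lbh were low in IHC-like cells and could pass the filter only through OHCs. This count and median are therefore a description. Aqp11, which encodes an intracellular water channel, reached 492, 554, 944 and 629 CPM in OHCs and 15.6, 17.3, 22.8 and 16.3 CPM in IHC-like cells. The lowest OHC library was far above the highest IHC-like one (log2 difference 5.09 ± 0.29 SE, adjusted p = 9.57e-09). Lbh, which encodes a transcription cofactor, stood at 1649.9, 769, 254 and 901 CPM against 5.21, 10.6, 3.81 and 4.09 CPM (log2 difference 6.78 ± 0.37 SE, adjusted p = 9.57e-09). Its OHC level was highest in replicate 1 and lowest in replicate 4, and no library overlapped the other class. Without replicate 3 the log2 difference of Lbh was 7.40. Ikzf2, which encodes helios, a transcription factor that promotes OHC maturation, stood at 355, 197, 327 and 340.2 CPM against 52.1, 26.6, 26.6 and 16.3 CPM, again without overlap (log2 difference 3.24 ± 0.31 SE, adjusted p = 2.62e-06).

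Among the other identity genes, Strip2 reached 521, 309.9, 1235 and 595 CPM in OHCs and 41.7, 13.3, 7.61 and 36.8 CPM in IHC-like cells (log2 difference 4.62 ± 0.37 SE, adjusted p = 5.54e-07). Its classes were separate in every library, and it was highest in the small replicate 4. Lmod3, a leiomodin that nucleates actin filaments, stood at 181, 71.5, 472 and 272 CPM against 15.6, 0, 64.7 and 40.9 CPM. Its call held with the library block (log2 difference 3.26 ± 0.45 SE, adjusted p = 1.03e-04) and was lost without it (adjusted p = 0.0811). Sri, which encodes the calcium-binding protein sorcin, rose by 3.94 and Ociad2 by 1.75 on the log2 scale. The spectrins did not pass: Sptan1 differed by 0.94 (adjusted p = 0.0994) and Sptbn1 by -0.32 (adjusted p = 0.501), at 104 ± 61.1 and 230.2 ± 40.2 CPM in OHCs (SD, n = 4).

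The share of cells with a UMI followed these levels despite the lower depth of OHCs. Aqp11 was seen in 82.7% of OHCs, 15.1% of IHC-like cells and 3.93% of 407 macrophage-like cells, which should lack it, at median depths of 3296, 10899 and 2560.0 UMIs. Thinned to 1000 UMIs per cell the shares were 46.9, 0 and 0.737%. Lbh was seen in 71.6, 6.72 and 12.3% of these classes and in 55.6, 1.68 and 5.16% after thinning. The IHC-like share of Lbh was thus below the macrophage-like share, and whether macrophage-like cells express Lbh was not tested. Strip2 was seen in 67.9, 20.2 and 0.491% (33.3, 1.68 and 0% thinned).

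**Figure D2:**
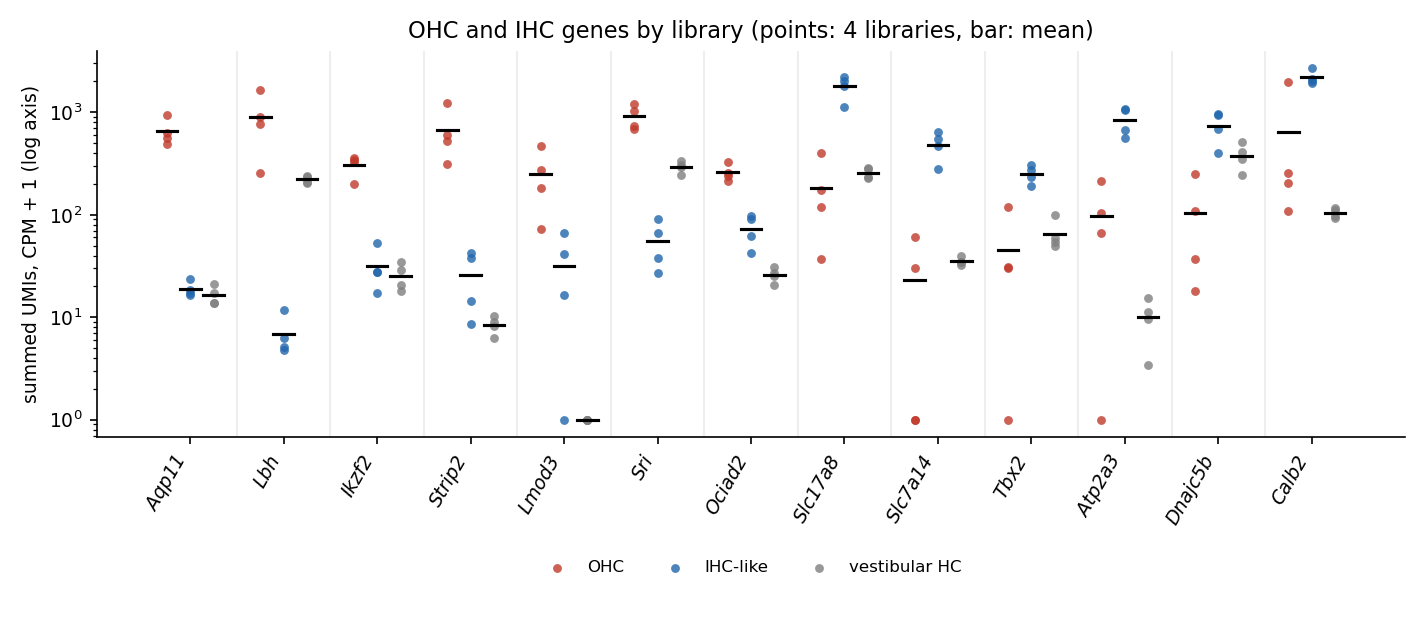
Summed UMIs of OHC and IHC genes, in CPM plus 1 on a log axis, for OHCs (red), IHC-like cells (blue) and vestibular HCs (grey); points are the 4 libraries and bars their means. The 7 OHC genes on the left are higher in every OHC library than in any IHC-like or vestibular library, and Calb2 on the right has 1 OHC library, replicate 3, near the IHC-like level.

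Most IHC genes tested were lower in OHCs. Of 8 listed, 6 passed the filter, 5 fell and none rose (median log2 difference -2.85), beside 5.63% lower and 5.39% higher over all genes tested. Members such as Slc7a14 were low in OHCs and could pass the filter only through IHC-like cells. This count and median are likewise a description. Slc17a8, the vesicular glutamate transporter of IHCs, stood at 174, 399, 36.3 and 119 CPM in OHCs and 2220.2, 1796, 1119 and 2019 CPM in IHC-like cells (log2 difference -3.24 ± 0.34 SE, adjusted p = 8.83e-06). The classes did not overlap, but the difference missed the threshold without the deep barcodes (log2 difference -3.99, adjusted p = 0.0782). Tbx2, a transcription factor needed for IHC fate, fell by 2.49 to 44.5 ± 51.6 CPM, and Slc7a14 fell by 3.96 to 22.1 ± 28.5 CPM (SD, n = 4). Atp2a3 stood at 65.1, 215, 0 and 102 CPM in OHCs and 1042, 677, 555 and 1067 CPM in IHC-like cells and fell by 2.89 on the log2 scale. Dnajc5b stood at 36.2, 250.3, 109 and 17.0 CPM against 396, 931, 685 and 952 CPM and fell by 2.81. The OHC level was highest in replicate 3 for each of these but Tbx2, which was highest in replicate 5. Without the cells that carried at least 3 markers of another type (glial, fibrocyte, blood or endothelial), Slc17a8 and Atp2a3 missed the threshold at log2 differences of -3.53 and -2.94 (adjusted p = 0.0755 and 0.146). Without replicate 3 the log2 difference was -3.95 for Slc17a8, -4.92 for Slc7a14, -3.87 for Atp2a3 and -3.79 for Dnajc5b, and without replicate 5 it was -3.12 for Tbx2. Calb2, which encodes calretinin, stood at 203, 1991, 109 and 255 CPM in OHCs against 2198 ± 335 CPM and did not pass (log2 difference -2.40 ± 0.64 SE, adjusted p = 0.0721). Replicate 3 was nearly as high as the IHC-like cells, and stood at 396 CPM without its 3 deep barcodes.

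The 10 genes with the largest rises were 1600022D10Rik, Lbh, St8sia3, C1ql1, Faim2, Dnm3, Sh2d4a, Mycbpap, Atp8a2 and Sh3gl3. C1ql1, a secreted complement-related synaptic organiser, reached 333, 131, 399 and 357 CPM in OHCs and 0, 0, 15.2 and 0 CPM in IHC-like cells (log2 difference 6.26 ± 0.55 SE, adjusted p = 1.27e-06). Dnm3, a dynamin of endocytosis, reached 615, 375, 1379.9 and 578 CPM against 5.21, 13.3, 7.61 and 20.4 CPM (log2 difference 5.57 ± 0.36 SE, adjusted p = 4.26e-08). Both were low throughout the IHC-like class, and all 4 IHC-like UMIs of C1ql1 were in replicate 4, so the size of its difference rests on that library. For genes with 1 to 3 UMIs in a class the ratio of pooled levels is given with its counting interval. The uncharacterised 1600022D10Rik had 56 UMIs in OHCs and 1 in all IHC-like cells (207-fold, 95% exact counting interval 35.7 to 8325), and St8sia3, a brain sialyltransferase, 51 and 1 (189-fold, 95% exact counting interval 32.4 to 7595). Faim2, an inhibitor of Fas-mediated cell death, had 56 and 3 (69.0-fold, 95% exact counting interval 22.4 to 345). Each was seen in all 4 OHC libraries. The few IHC-like UMIs of all 3 genes were in replicate 3, so without that replicate each was at 0 in IHC-like cells. Atp8a2, a phospholipid flippase, rose by 5.29 to 286 ± 94.2 CPM, and Sh3gl3, an endophilin, by 5.27 to 592 ± 145 CPM (SD, n = 4). Without replicate 3 the log2 difference of Atp8a2 was 6.47.

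The 10 with the largest falls were Ripor3, Prkd1, Whrn, Slc7a14, Slc10a7, Igfbp5, Amot, Tpbgl, Slc17a8 and Relt. Igfbp5, which binds insulin-like growth factors, was the most abundant of them, at 962, 1097, 36.3 and 425 CPM in OHCs and 10225, 6719, 4356 and 7471 CPM in IHC-like cells (log2 difference -3.62 ± 0.45 SE, adjusted p = 8.04e-04). Its OHC level was lowest in replicate 4 and stayed below every IHC-like library. Without the deep barcodes it stood at 203, 653, 36.3 and 264 CPM in OHCs. Ripor3 had 5 UMIs in all OHCs, all in replicate 3, against 276, 241, 388 and 495 CPM in IHC-like cells (log2 difference -4.51 ± 0.54 SE, adjusted p = 2.51e-05), so without that replicate it had no OHC UMI. All 20 of these genes passed in each of the 4 fits that left out 1 cochlear library. These fits reused the libraries in which the genes were chosen for large differences without overlap. The outcome was therefore likely in advance and gives no separate support.

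**Figure D3:**
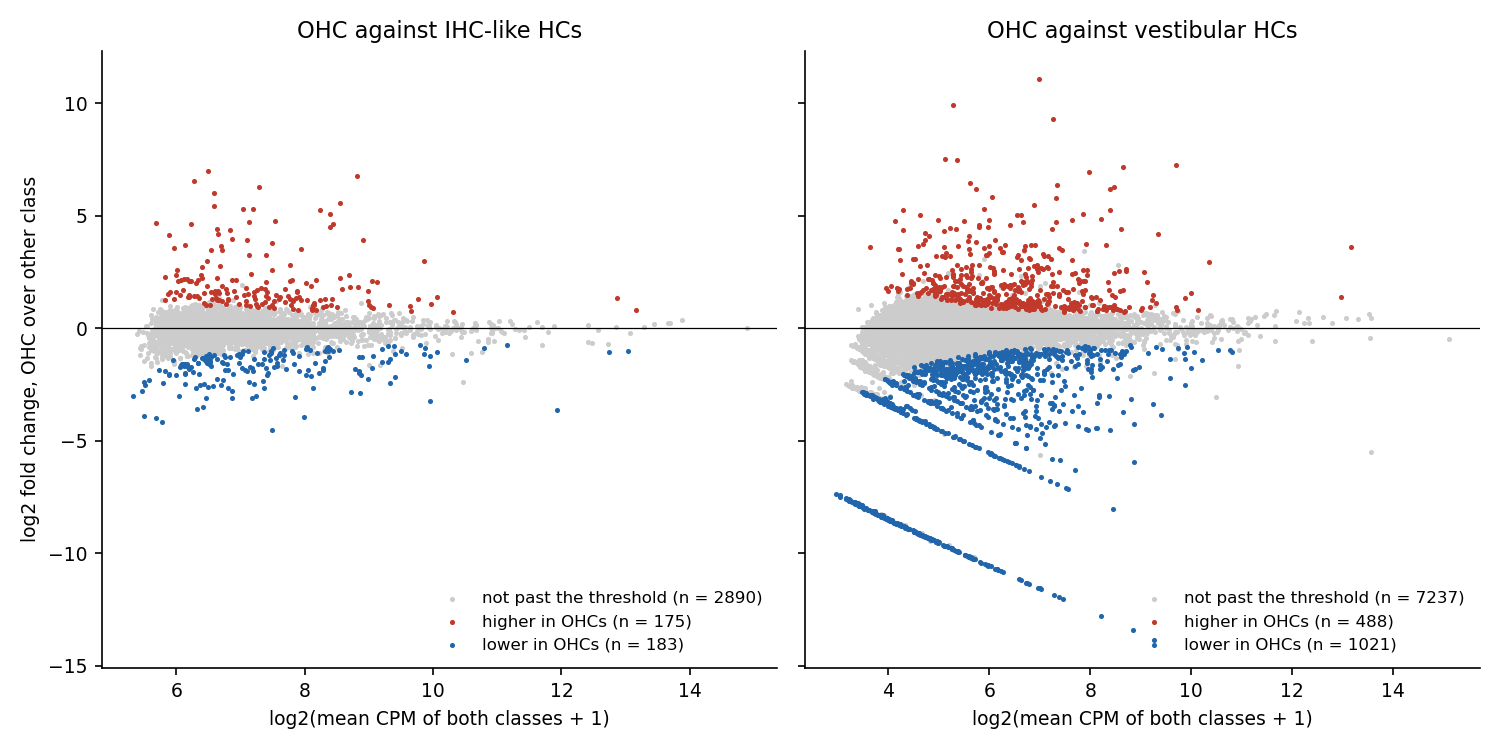
Log2 difference of OHCs over IHC-like cells (left, 3248 genes) and over vestibular HCs (right, 8746 genes) against mean level (log2 of CPM plus 1); each point is a gene outside the rule, coloured where the adjusted p was under 0.05. Higher and lower genes are near equal in number on the left (175 and 183), lower ones prevail on the right (488 and 1021), and the lowest diagonal there holds genes with no UMI in any OHC.

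Of 11 genes of the transduction apparatus 8 passed the filter, 1 rose and none fell between the cochlear classes, beside 5.39% higher and 5.63% lower over all genes tested. Their median log2 difference was 0.74. Tmie, a subunit of the transduction complex, stood at 261, 131, 508 and 221 CPM in OHCs and 41.7, 69.2, 68.5 and 40.9 CPM in IHC-like cells, without overlap (log2 difference 2.04 ± 0.33 SE, adjusted p = 4.58e-04). Cib2, a calcium-binding partner of the channel, stood at 1896, 1895, 3413 and 2143 CPM against 1689, 1735, 2131 and 1757 CPM (log2 difference 0.30 ± 0.19 SE, adjusted p = 0.393). Tomt, which is needed to bring the channel to the bundle, stood at 273 ± 89.5 against 142 ± 42.5 CPM (log2 difference 0.84 ± 0.26 SE, adjusted p = 0.0508), just short of the threshold. The tip link cadherins Cdh23 and Pcdh15 differed by 0.75 and 0.76 (adjusted p = 0.123 and 0.217).

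Of 32 stereocilia genes 21 passed the filter, 6 rose and 1 fell (median log2 difference 0.01), beside 5.39% and 5.63% over all genes. Strc, which encodes stereocilin, the protein that ties OHC stereocilia to each other and to the tectorial membrane, reached 232, 137, 363 and 306 CPM in OHCs and 5.21, 14.6, 15.2 and 20.4 CPM in IHC-like cells (log2 difference 3.92 ± 0.36 SE, adjusted p = 1.76e-06). Whrn, the tip scaffold whirlin, had 2 UMIs in all OHCs and stood at 83.4, 94.5, 95.1 and 106 CPM in IHC-like cells, where it was higher (18.7-fold, 95% exact counting interval 5.07 to 156, edgeR adjusted p = 4.87e-04). Of its 2 OHC UMIs 1 was in replicate 3 and 1 in replicate 5, and leaving out replicate 5 moved its fitted fold by over 1.5 times. These genes thus moved in opposite directions, each with no overlap. Myo15 (log2 difference 1.40), Clic5 (1.23), Grxcr1 (1.22), Lmo7 (1.06) and Espn, the actin bundler espin (1.00), also rose. Without replicate 5 the adjusted p was 0.11 for Clic5, 0.11 for Grxcr1, 0.058 for Lmo7 and 0.093 for Espn, and without replicate 3 it was 0.064 for Grxcr1.

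Of 15 listed calcium genes 11 passed the filter, 1 rose and 3 fell, beside 5.39% higher and 5.63% lower over all genes tested, and their median log2 difference was -1.08. Atp2b2, the plasma membrane calcium pump of hair bundles, stood at 666, 423, 980.5 and 510.2 CPM in OHCs and 36.5, 29.3, 34.2 and 0 CPM in IHC-like cells (log2 difference 4.52 ± 0.38 SE, adjusted p = 1.10e-06). Its relative Atp2b1, the pump of the basolateral membrane, stood at 347, 298, 363 and 306 CPM against 1079, 713, 837 and 1103 CPM (log2 difference -1.48 ± 0.23 SE, adjusted p = 3.09e-04). The pumps were therefore separate in every library in opposite directions. Calm2, which encodes calmodulin, fell by 1.08 on the log2 scale, and the other fall was Atp2a3, described above. Calb1, which encodes the calcium buffer calbindin, had 43 UMIs in OHCs and none in IHC-like cells, and was not tested because it did not pass the filter. Its mean OHC level of 135 CPM was 65.2 times the floor of 3 UMIs over the IHC-like class. These UMIs came from 10 of the 81 OHCs (12.3%), so that level does not describe most OHCs.

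Of 10 potassium channel genes 6 passed the filter, none rose and 3 fell (median log2 difference -0.91; over all genes 5.39% were higher and 5.63% lower), and 1 of the 3 falls, Kcnab1, passed whichever library was left out. Kcnab1, an auxiliary beta subunit, stood at 36.2, 65.6, 0 and 51.0 CPM in OHCs and 245, 271, 156 and 294 CPM in IHC-like cells (log2 difference -2.39 ± 0.35 SE, adjusted p = 1.70e-04). Kcnh2 fell by 1.47, and without replicate 5 its adjusted p was 0.084. Kcna10 fell by 0.90, with an adjusted p of 0.21, 0.051 and 0.13 without replicates 1, 3 and 5.

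Both subunits of the efferent acetylcholine receptor rose. Chrna9 stood at 123, 161, 327 and 170.1 CPM in OHCs and 5.21, 31.9, 0 and 8.17 CPM in IHC-like cells (log2 difference 3.49 ± 0.52 SE, adjusted p = 2.31e-04), and Chrna10 at 405, 262, 327 and 442 CPM against 0, 19.96, 7.61 and 8.17 CPM (log2 difference 4.76 ± 0.42 SE, adjusted p = 1.27e-06). Neither overlapped between classes. Without replicate 3, where both had their highest IHC-like level, the log2 difference was 5.20 for Chrna9 and 5.89 for Chrna10. They were the 2 of 5 efferent synapse genes that passed the filter (median log2 difference 4.12), beside 5.39% higher and 5.63% lower over all genes tested. Both were low in IHC-like cells, so this median is given as a description. Kcnn2, the calcium-activated channel that follows the receptor, did not pass it and stood at 77.6 ± 28.7 and 11.5 ± 6.29 CPM (SD, n = 4).

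Of 16 ribbon synapse genes 11 passed the filter, 1 rose and 3 fell (median log2 difference -0.64), beside 5.39% and 5.63% over all genes. Cacna1d, the calcium channel that triggers release at HC ribbons, stood at 514, 465, 1344 and 578 CPM in OHCs and 182, 168, 98.9 and 298 CPM in IHC-like cells (log2 difference 1.83 ± 0.32 SE, adjusted p = 8.92e-04). Replicate 4 was highest, and the lowest OHC library still exceeded every IHC-like one. Rims2, an active zone protein, stood at 14.5, 35.8, 0 and 51.0 CPM against 177, 169, 198 and 237 CPM (log2 difference -2.66 ± 0.40 SE, adjusted p = 2.57e-04), and the other falls were Slc17a8 and Dnajc5b. Ctbp2, which encodes the ribbon protein ribeye, did not pass (adjusted p = 1.000).

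**Figure D4:**
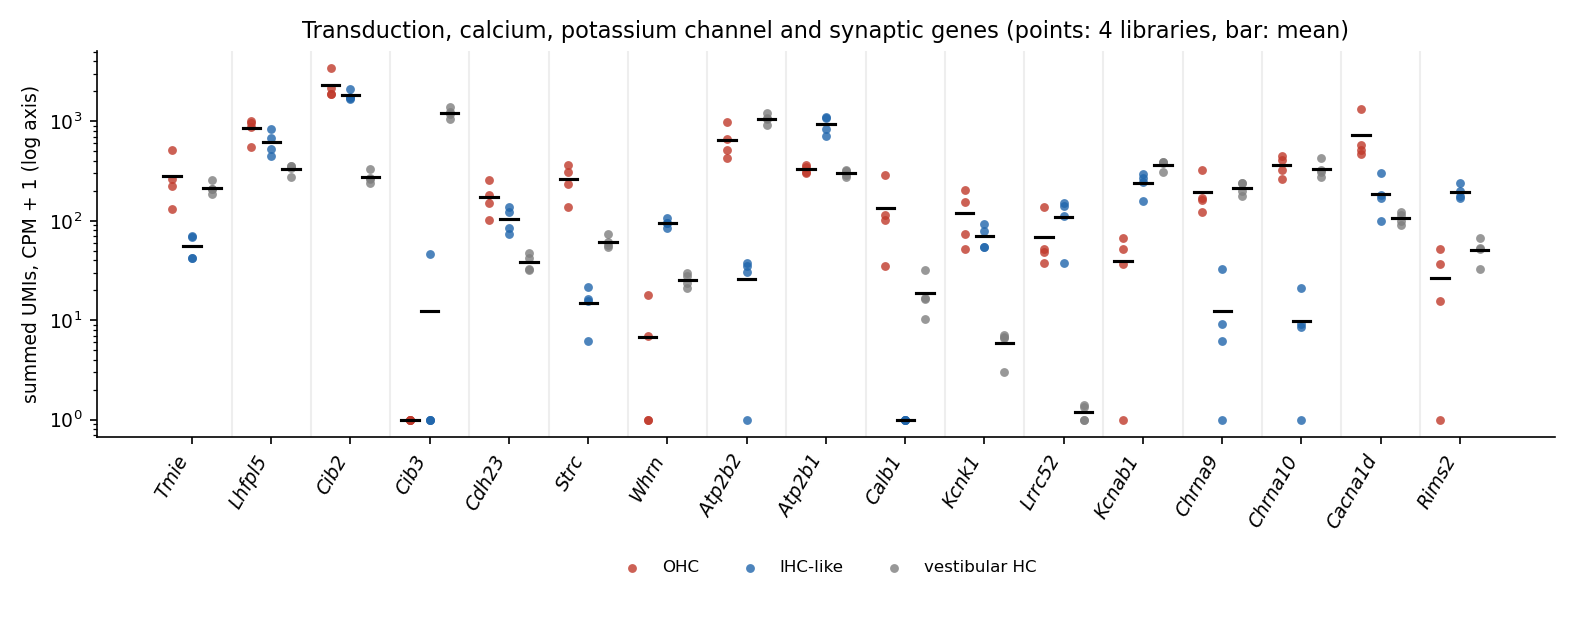
Summed UMIs of transduction, calcium, potassium channel and synaptic genes, in CPM plus 1 on a log axis, for OHCs (red), IHC-like cells (blue) and vestibular HCs (grey); points are the 4 libraries and bars their means. Atp2b2, Chrna9 and Chrna10 in OHCs lie above all IHC-like libraries, with Chrna9 and Chrna10 overlapping the vestibular libraries and Atp2b2 mostly below them, whereas Cib2 and Cdh23 lie near the IHC-like level and above all vestibular libraries.

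Among 13 HC transcription factors 4 passed the filter, with Ikzf2 and Nr2f2 higher and Tbx2 lower, beside 5.39% higher and 5.63% lower over all genes tested. Nr2f2, a nuclear receptor, stood at 253, 29.8, 145 and 119 CPM in OHCs and 125, 6.65, 19.0 and 8.17 CPM in IHC-like cells, with overlap (log2 difference 1.88 ± 0.45 SE, adjusted p = 0.00967, and adjusted p = 0.068 without replicate 5). Calls among genes of metabolism, stress and death stand beside the same 5.39% higher and 5.63% lower over all genes. None of the 13 mitochondrially encoded genes passed the test (median log2 difference 0.09), nor did any of 10 chaperones (-0.21). Of 10 antioxidant genes Prdx6 fell, of 7 cell death and cell cycle genes Bcl2, which restrains apoptosis, fell, and of 4 dissociation stress genes Btg2 fell. Bcl2 stood at 50.7, 65.6, 0 and 51.0 CPM in OHCs and 266, 259, 323 and 278 CPM in IHC-like cells, without overlap (log2 difference -2.34 ± 0.36 SE, adjusted p = 2.57e-04). The adjusted p was 0.068 and 0.069 for Prdx6 without replicates 3 and 5, and 0.17 and 0.096 for Btg2 without replicates 1 and 5. Of 9 glycolytic and creatine kinase genes Ldhb rose by 1.25, with replicate 3 far above the others, and by 0.18 in value (adjusted p = 0.758) without the deep barcodes.

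Markers of other cells are read beside the same 5.39% higher and 5.63% lower over all genes. Of 7 supporting cell markers tested 4 (Sox2, Slitrk6, Otog and Slc1a3) were lower in OHCs than in IHC-like cells, and both fibrocyte markers tested, Otos and Ptgds, were higher. IHC-like cells summed to 1772 ± 875 CPM of supporting cell markers and OHCs to 858 ± 1061 CPM, and fibrocyte markers summed to 219 ± 134 and 998 ± 993 CPM (SD, n = 4). Among the supporting cell markers Slc1a3 passed in every fit that left out 1 library, but neither it nor Slitrk6 passed without the cells that carried at least 3 glial, fibrocyte, blood or endothelial markers (adjusted p = 0.294 and 0.0564). Sox2 missed the threshold without replicates 1 and 3 (adjusted p = 0.1 and 0.065), Slitrk6 without 1 and 5 (0.1 and 0.16) and Otog without 3 and 5 (0.19 and 0.071). Otos missed the threshold without replicates 3 and 4 (adjusted p = 0.30 and 0.060) and Ptgds without replicates 1, 3 and 5 (adjusted p = 0.099, 0.62 and 0.12).

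OHCs were next compared with the 1995 vestibular HCs that passed the same gate in the 4 vestibular libraries, a comparison that shares its OHC libraries with the one above. Organ and library cannot be told apart in it. Of 8746 genes tested, 488 (5.58%) were higher in OHCs and 1021 (11.7%) were lower, with a median log2 difference of -0.13 over all genes. Pooled vestibular HCs held 11825234 UMIs and OHCs 392310.

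Most OHC identity genes tested also stood above the vestibular level. Of 9 tested 7 rose and none fell (median log2 difference 3.22), beside 5.58% higher and 11.7% lower over all genes. Lmod3 and Strip2 could pass the filter only through OHCs, so this count and median are a description. Aqp11 stood at 20.3, 12.8, 16.2 and 12.8 CPM in vestibular HCs (log2 difference 5.27 ± 0.27 SE, adjusted p = 1.50e-12) and Ikzf2 at 33.3, 19.6, 17.0 and 28.1 CPM (log2 difference 3.59 ± 0.28 SE, adjusted p = 3.17e-09). Lbh stood at 232, 209, 239 and 203 CPM in vestibular HCs, so that its lowest OHC library, replicate 4, lay just above the highest vestibular one (log2 difference 2.07 ± 0.40 SE, adjusted p = 0.00149). Lmod3 had 66 UMIs in OHCs and none in vestibular HCs. Its mean OHC level of 249 CPM was 981 times the floor of 3 UMIs over the vestibular class.

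The 10 genes with the largest rises over vestibular HCs were Lmod3, C1ql1, Gm45716, Rorb, Gata3, Cables1, Limd2, Strip2, Gfod1 and Slc45a3. Rorb, a nuclear receptor, stood at 941, 769, 617 and 850.4 CPM in OHCs and 4.34, 6.82, 4.85 and 4.09 CPM in vestibular HCs (log2 difference 7.17 ± 0.34 SE, adjusted p = 5.85e-13). Gm45716, a predicted gene, stood at 1947, 1562, 1307 and 1786 CPM against 9.41, 11.1, 10.51 and 9.72 CPM (log2 difference 7.26 ± 0.34 SE, adjusted p = 5.85e-13). In IHC-like cells Gm45716 averaged 212 CPM. Gata3, a transcription factor of the developing cochlea, stood at 1107, 226, 291 and 374 CPM against 1.45, 6.65, 3.23 and 2.05 CPM (log2 difference 6.95 ± 0.70 SE, adjusted p = 1.37e-04), with replicate 1 well above the rest. The log2 difference of Gata3 was 5.92 without cochlea replicate 1 and 7.75 without vestibule replicate 3. Gfod1 passed the filter in 4 of 8 fits that left out a library and was called in each of those 4, which its choice made likely.

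The 10 largest falls were all genes with no UMI in any OHC. Cib3, a relative of Cib2 in the transduction complex, stood at 1062, 1254, 1388 and 1191 CPM in vestibular HCs. Its mean vestibular level was 160.0 times a floor of 3 UMIs over all OHCs. The same ratio was 119.5 for the chemokine Cxcl14, 77.1 for Adam11 and 45.6 for the homeobox gene Meis2. For Bmp2, Cfap69, Smim5, Otol1, Cyp2g1 and Pde5a it lay between 28.7 and 43.5. Otol1 encodes an otolith collagen, and Adam11 was also a listed vestibular HC marker.

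In the transduction list 3 of 9 tested rose and 1 fell against vestibular HCs (median log2 difference 0.39), beside 5.58% and 11.7% over all genes. Cib2 stood at 265, 268, 237 and 330.0 CPM in vestibular HCs, well below every OHC library (log2 difference 2.94 ± 0.26 SE, adjusted p = 2.03e-08), while Cib3 was the gene that fell. Cdh23 rose by 2.26 and Lhfpl5, a tip link partner of the channel, by 1.27. Tmie stood at 280.3 ± 161 and 215 ± 30.5 CPM.

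Of 28 stereocilia genes tested 3 were higher and 9 lower (median log2 difference -0.24), and over all genes tested falls also outnumbered rises (11.7 and 5.58%, median log2 difference -0.13). Strc rose by 1.89 and Lmo7 by 1.32. Xirp2, an actin-binding protein of stereocilia, stood at 79.6, 113, 182 and 102 CPM in OHCs and 1114, 1120.3, 1011 and 1116 CPM in vestibular HCs (log2 difference -3.36 ± 0.30 SE, adjusted p = 1.65e-08). Myo3b and Espnl each had 1 UMI in all OHCs, against 153 ± 9.25 and 189 ± 50.8 CPM in vestibular HCs. Ptprq, a phosphatase of the shaft connectors, and Pls1, the bundler plastin, fell by 2.19 and 1.84, and both were lower in every OHC library. Grxcr2, the remaining rise (0.75), missed the threshold whichever cochlear library was left out (adjusted p = 0.075, 0.16, 0.067 and 0.052). Of the 9 falls, Eps8 missed it without cochlea replicate 1 or 3 or vestibule replicate 4 or 5 (adjusted p = 0.05, 0.094, 0.056 and 0.056), Espn without vestibule replicates 3 and 4 (0.058 and 0.067) and Myo1h without cochlea replicate 3 (0.059).

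Of 9 potassium channel genes tested 4 rose and 3 fell (median log2 difference 0.92), beside 5.58% higher and 11.7% lower over all genes. Among them Kcnh2, a rise, missed the threshold without cochlea replicate 3 (adjusted p = 0.052), and Kcnj2, a fall, without cochlea replicates 3, 4 and 5 (0.13, 0.051 and 0.062). Kcnk1, a leak channel, rose by 4.81, from 5.79, 5.65, 6.07 and 2.05 CPM in vestibular HCs to 152, 203, 72.6 and 51.0 CPM in OHCs. Lrrc52, an auxiliary subunit of large-conductance calcium-activated channels, had 3 UMIs in all vestibular HCs and stood at 50.7, 47.7, 36.3 and 136 CPM in OHCs (241-fold, 95% exact counting interval 73.2 to 1251, edgeR adjusted p = 9.03e-09). Kcnab1 and Kcna10 fell by 2.95 and 1.74, as they did against IHC-like cells. Kcnn2 rose by 2.27, whereas Chrna9 and Chrna10 stood at 213 ± 30.2 and 332 ± 67.8 CPM in vestibular HCs and did not pass (log2 difference -0.37 and 0.06, adjusted p = 0.429 and 0.914).

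Of 14 calcium genes tested 2 rose and 3 fell, beside the same 5.58 and 11.7%, and the fall of Slc8a1 missed the threshold without cochlea replicate 3 (adjusted p = 0.056). Calb1, seen in 10 of the 81 OHCs, rose by 2.61. Atp2b2 stood at 1068, 909, 1208 and 1055 CPM in vestibular HCs (log2 difference -0.87 ± 0.26 SE, adjusted p = 0.0194), but missed the threshold without the deep barcodes (adjusted p = 0.0713) and without cochlea replicate 5, vestibule replicate 4 or vestibule replicate 5 (adjusted p = 0.053, 0.065 and 0.056). Of 15 ribbon genes Cacna1d rose by 2.55 and Pclo, the scaffold piccolo, fell by 2.03 (log2 difference -2.72 without cochlea replicate 3), beside 5.58% and 11.7% over all genes. Of 10 transcription factors 3 rose and 2 fell, beside the same 5.58% and 11.7%, among them Nr2f2 (3.38) and Lhx3 (-2.08), a LIM factor of HCs. Without cochlea replicate 1 the log2 difference of Nr2f2 was 2.34, and Rfx3 and Barhl1 missed the threshold there, as in other fits that left out 1 library (without cochlea replicate 1, adjusted p = 0.052 and 0.37). The vestibular HC markers themselves fell in 5 of 6 cases, beside 11.7% lower over all genes, with Adam11 and Tnc at 0 in OHCs. The member not called was Spp1, the most abundant of them, with means of 438 CPM in OHCs and 23618 CPM in vestibular HCs.

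The most abundant OHC transcripts were ranked by their mean over the 4 libraries, outside mitochondrial and ribosomal protein genes. Counts of 3' tags do not grow with transcript length, so levels of different genes can be set side by side. Malat1, a nuclear RNA, averaged 30596 ± 6665 CPM, and Ocm, whose UMIs helped choose the cells, 23069.6 ± 6453 CPM (SD, n = 4). Their order turned in replicate 4, where Ocm was the higher, and without the deep barcodes Ocm averaged 29785 CPM. Pcp4, a small calmodulin-binding protein, followed with 10681, 15472, 22151 and 20086 CPM in OHCs, 13120.5 ± 4153 CPM in IHC-like cells and 1274 ± 407 CPM in vestibular HCs (SD, n = 4). It was thus high in both cochlear classes and lower in every vestibular library. Gm42418, which overlaps ribosomal RNA sequence, varied widely (2106, 8469, 25891 and 8453 CPM), and Skp1a, S100a1, Calm2, Fbxo2 and Tpt1 were also among the first 10.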

How the data were processed

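Single cells of pooled cochleae and vestibular organs were profiled with 3' droplet sequencing. The authors aligned reads to mm10 with Cell Ranger (5.0.1 in the file headers of replicates 1 and 2, 6.1.2 in the others and in the submitters' processing notes) and deposited raw UMI counts of filtered barcodes. Reads counted once per UMI remove amplification copies, but free RNA and doublets may remain, and no doublet caller was run. Members, gene lists and tests were chosen with earlier results of these data known. Some list members are not reported here and stay out of the list counts.

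UMIs were summed per library and class and tested with edgeR 4.0.16 in R 4.3.3 (quasi-likelihood test, TMM, filterByExpr, Benjamini-Hochberg over all genes tested, threshold 0.05). The SE of a log2 difference is its absolute value divided by the square root of the test's F statistic, and was not fitted separately. The 9 rule genes stayed in the fit and out of all counts of calls. Classes of the same library were blocked by library, and OHCs against vestibular HCs were not. CPM is a class's UMIs per 1000000 of its own UMIs. Macrophage-like cells had a UMI in at least 3 of 5 macrophage markers. The 10 genes with the largest difference in each direction were named among those past the threshold, with no overlap between libraries and at least 50 UMIs, and so were list members and the 10 most abundant genes. Alternatives included DESeq2 1.42.0, RLE factors, no filter, other gates, and leaving out each library.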

Additional observations from a re-analysis of the deposited data

Results flagged for a closer look

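In 113 genes with at least 50 UMIs, the OHC level of each library was compared with the other 3, and 18 had 1 library farther from the rest than Dixon's 95% limit, where chance gives about 1 in 20, or 5.65. In replicate 3 these were high: Calb2 (1991 CPM), Snap25 (662 CPM), Mt3 (596 CPM), Ckb (960 CPM), Ldhb (822 CPM) and S100b (346 CPM). Without the 3 deep barcodes of that library they stood at 396, 27.6, 92.0, 294, 230.1 and 138 CPM. In replicate 1 Actb (883 CPM), Gata3 (1107 CPM) and Nr2f1 (1158 CPM) were high, and stood at 359, 780.3 and 297 CPM without its 4 deep barcodes, while Cdkn2d was low (152 CPM). Replicate 4, with 8 OHCs and no deep barcode, was high in Cacna1d (1344 CPM), Cib2 (3413 CPM), Mycbpap (617 CPM), Jund (436 CPM) and Ush1c (291 CPM) and low in mt-Co1 (8388 CPM) and mt-Nd4 (5592 CPM). Sptbn1 was low in replicate 5 (170.1 CPM).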

How the results depend on the processing

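The 81 OHCs came down to 63 with a gate of 4 HC genes, 64 with stricter classes and 39 with a mitochondrial limit of 10%. Against IHC-like cells the 175 higher and 183 lower genes became 70 and 79 under that limit, 270 and 397 with no filter on low counts, and 131 and 116 with no replicate block. With 3 alternatives chosen after seeing the data they became 286 and 351 without OHC barcodes over 10000 UMIs, 37 and 40 with cells thinned to 1000 UMIs (277 genes tested), and 188 and 198 in OHCs with a Slc26a5 UMI. Leaving out 1 library gave 109 to 189 higher and 104 to 185 lower genes, the lowest without cochlea replicate 5. DESeq2 called 148 and 122.

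Against vestibular HCs the 488 higher and 1021 lower genes became 280 and 763 under the mitochondrial limit, 750 and 1525 with no filter, and 204 and 397 after thinning. Leaving out 1 library gave 320 to 502 higher and 468 to 1086 lower genes. The lowest came without a vestibular library (320 higher without replicate 3 or 4, and 548, 468, 471 and 484 lower without replicates 1, 3, 4 and 5), where the filter kept 3469 to 3546 genes. DESeq2 called 341 and 763. With the replicate block 479 were higher and 1134 lower. Same-numbered OHC and vestibular libraries deviated together with correlations of 0.27, 0.09, 0.12 and 0.03. Replicates 1, 3 and 4 correlated best with their own number and replicate 5 did not, a hint from the data and not from the design, since the labels give the number alone. Replicate 1 of both organs also carried the older Cell Ranger version.

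Without the deep barcodes 3 genes that had not passed changed sign: Cryab against IHC-like cells (-1.44) and, against vestibular HCs, Actb (-0.91) and Ntrk3 (-7.97, with no OHC UMI left, so the size depends on the prior count). The cause was not tested. In replicate 4, with 8 OHCs, a count of 0 still allows 109 CPM.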
